A study of Mus musculus with 12 samples.

Results

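The genes described here encode collagens, the fibrous and network proteins of the extracellular matrix, together with a set of bone and matrix proteins. They were chosen by symbol from the count table of a study that sequenced RNA of sorted mouse bone marrow macrophages. Every collagen chain gene was taken, with Sparc, Bglap, Bglap2, Ibsp, Alpl, Fn1, Lum, Dcn, Bgn, Postn and Mgp, as long as the 12 libraries together held at least 10 counts. Of 56832 gene entries, 55 had such a symbol and 43 reached 10 counts. They comprise 32 collagen chains and 11 other genes. Just inside the minimum were Col9a2 with 10 counts, Col10a1 with 17, Col7a1 with 21 and Col4a3 with 22. Just outside were Col26a1 and Col13a1 with 9 counts each and Col6a6 and Col12a1 with 4 each. A further 7 collagen chain genes, among them Col6a3 and Col4a4, had no count at all.

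The leukemic libraries came from mice that had received bcCML cells, a transplantable model of chronic myeloid leukemia in blast crisis, and were taken at day 11, late in the disease. The others came from healthy, non-leukemic mice. Each condition had 3 male and 3 female libraries. The sort kept CD45+ F4/80+ cells that were negative for Ly6g and Ly6c, a gate meant to hold macrophages and to leave out granulocytes, monocytes and the CD45-negative cells of bone and stroma. The labels name no mouse strain, age or transplant conditioning, and leave unsaid if each replicate was its own animal. A p therefore measures the spread among libraries, which may be technical.

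Type I collagen is a heterotrimer of the Col1a1 and Col1a2 chains and is the main protein of bone, where osteoblasts secrete it and then mineralize it with the help of alkaline phosphatase, bone sialoprotein and osteocalcin. Other collagens build basement membranes around vessels, sit on the surface of larger fibrils or span the cell membrane. Macrophages are known mainly for binding and degrading collagen, although they also secrete some matrix proteins, among them fibronectin.

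Promoter sequences are shown for 4 genes because the results turn on them: Bglap, Sparc and Col1a2 were high in the same libraries, and Col5a1 had another order of libraries. Each runs from 250 bases before to 50 bases after the annotated start in RefSeq, on build GRCm38.p6. Capitals mark matches, on either strand, to the TATA box (TATAAA), the CCAAT box (CCAAT) or a core motif of Runx factors (ACCACA). These 3 motifs do not overlap each other in the sequences shown. Of the 43 genes, 32 had a promoter in the RefSeq table, and Col1a1, Bglap2 and Dcn were not among them.
Bglap, chr3:88384417-88384716, minus strand: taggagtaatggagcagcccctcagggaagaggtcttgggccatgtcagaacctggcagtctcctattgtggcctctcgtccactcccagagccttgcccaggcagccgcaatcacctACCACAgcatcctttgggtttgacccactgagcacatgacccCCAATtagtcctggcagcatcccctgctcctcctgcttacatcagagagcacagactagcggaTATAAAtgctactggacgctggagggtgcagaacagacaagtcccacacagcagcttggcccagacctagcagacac
Sparc, chr11:55420031-55420330, minus strand: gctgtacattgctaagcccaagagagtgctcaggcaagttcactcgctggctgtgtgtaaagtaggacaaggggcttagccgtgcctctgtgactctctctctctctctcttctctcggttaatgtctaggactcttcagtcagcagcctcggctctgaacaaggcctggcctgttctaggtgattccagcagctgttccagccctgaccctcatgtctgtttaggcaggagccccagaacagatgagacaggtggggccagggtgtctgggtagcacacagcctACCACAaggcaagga
Col1a2, chr6:4505368-4505667, plus strand: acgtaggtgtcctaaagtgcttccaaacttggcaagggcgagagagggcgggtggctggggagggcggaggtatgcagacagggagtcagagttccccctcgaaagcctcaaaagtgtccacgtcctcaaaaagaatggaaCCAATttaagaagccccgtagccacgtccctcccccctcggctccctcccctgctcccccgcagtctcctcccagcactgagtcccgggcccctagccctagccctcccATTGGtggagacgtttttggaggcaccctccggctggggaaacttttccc
Col5a1, chr2:27886175-27886474, plus strand: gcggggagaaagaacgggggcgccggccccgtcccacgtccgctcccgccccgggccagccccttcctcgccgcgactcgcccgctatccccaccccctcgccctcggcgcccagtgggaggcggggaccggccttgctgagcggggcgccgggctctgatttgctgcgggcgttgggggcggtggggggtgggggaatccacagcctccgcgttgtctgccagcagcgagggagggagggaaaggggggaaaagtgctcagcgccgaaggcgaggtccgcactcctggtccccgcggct

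The Bglap window held all 3 motifs, with TATAAA at -27, CCAAT at -90 and ACCACA at -132, counted from the annotated start at 1. In Sparc the single match was ACCACA at 36, and in Col1a2 CCAAT matched at -109 and, on the opposite strand, at 1. None of the 3 motifs matched in the Col5a1 window. Among all 32851 RefSeq mouse promoters of this length, TATAAA was present in 13.6%, CCAAT in 37.4% and ACCACA in 16.8%. A match describes these letters only and gives no information on binding.

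Total counts were 22437689 to 30014855 in leukemic and 16911827 to 26611831 in non-leukemic libraries, so that 3 counts, the most that a count of 0 allows, correspond to 0.1 to 0.177 CPM (a scale on which every library has the same sum). This limit and all intervals cover counting error only. Some libraries stood apart. Female leukemic replicate 1 had 17891 genes with counts against 19521 to 21247 in the others, and male non-leukemic replicate 3 had the most Adgre1, the gene of F4/80, at 258 CPM against 75.9 to 112 CPM in the other non-leukemic libraries. Male non-leukemic replicates 2 and 3 held most of the type I collagen counts of the non-leukemic group, and male leukemic replicate 2 held most of the Col1a1 counts of the leukemic group. Results are therefore given with and without that pair of male non-leukemic libraries, an omission chosen with earlier results of these data known. Differences were tested with edgeR's quasi-likelihood test over 15758 genes with sex as a term, and an adjusted p (Benjamini-Hochberg over all genes tested) under 0.05 counted as passed.

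Matrix transcripts were rare in both conditions. The 43 genes together took 0.0154% ± 0.00625 of the counts in leukemic libraries and 0.0339% ± 0.0250 in non-leukemic libraries (SD, n = 6 each). Without male non-leukemic replicates 2 and 3, which had 0.0445% and 0.0806%, the non-leukemic share was 0.0195% ± 0.00154 (n = 4). The leukemic libraries ranged from 0.00636% in female replicate 1 to 0.0251% in male replicate 1, so the conditions overlapped. The difference of -0.0185 percentage points, leukemic minus non-leukemic, was -0.00915 without male non-leukemic replicate 3 alone and -0.00416 without both. The number of the 43 genes with any count was 15 to 31 in leukemic libraries, lowest in female replicate 1, and 23 to 37 in non-leukemic libraries, highest in male replicate 3. Only 8 genes had counts in all 12 libraries, and 17 were at 0 in at least 6.

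**Figure D1:**
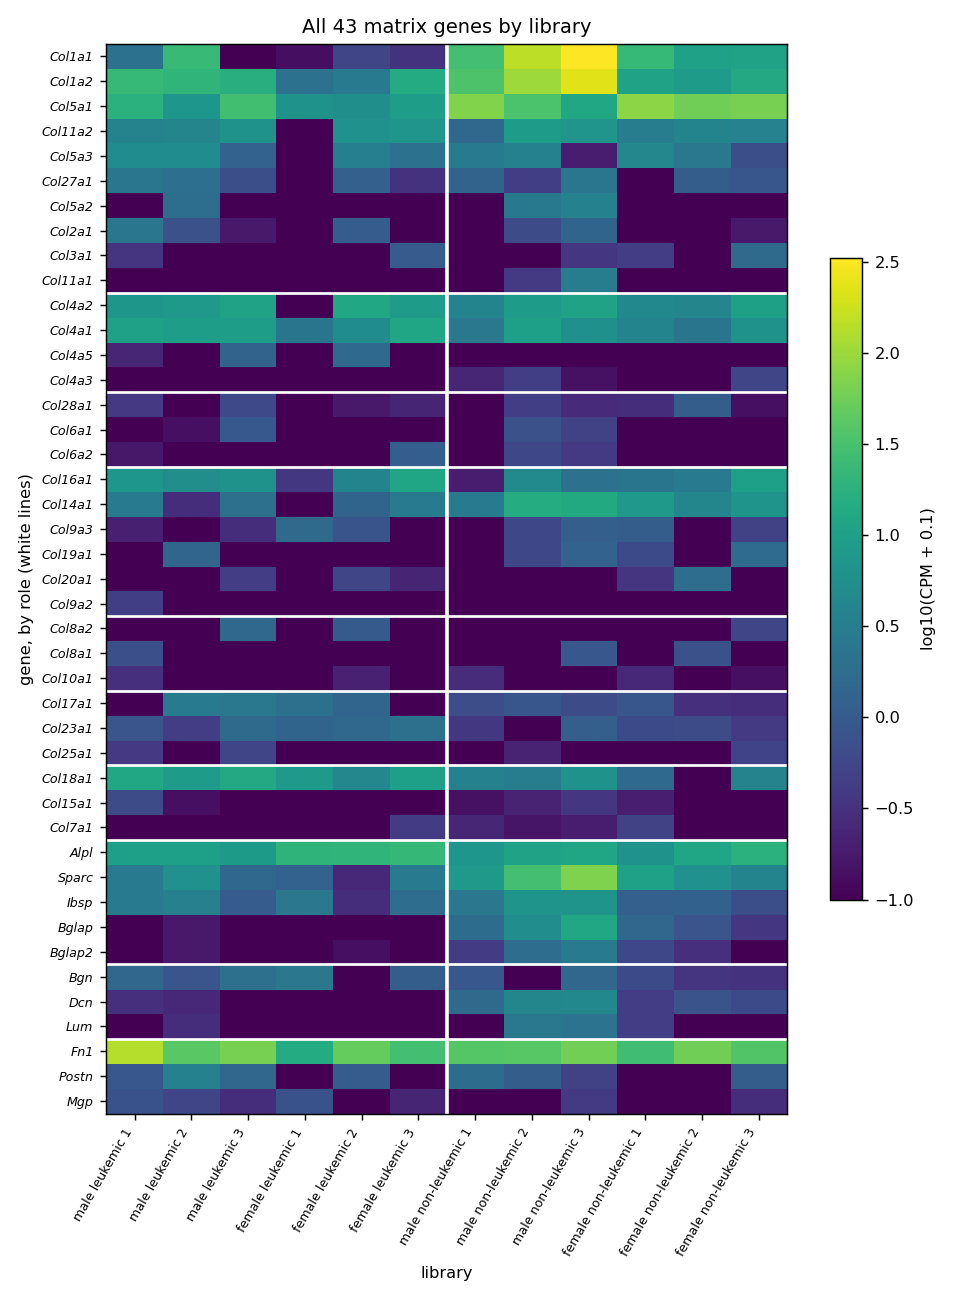
All 43 matrix genes in rows, ordered by role, and the 12 libraries in columns, with leukemic libraries left of the vertical white line. Color gives log10(CPM + 0.1), with the darkest shade for a count of 0. Col1a1 and Col1a2 are brightest in male non-leukemic replicates 2 and 3, whereas Fn1 and Alpl are bright across all libraries.

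A filter on low counts left 29 of the 43 genes for the test. Among them 7 fell in leukemic libraries and 0 rose in edgeR, where 9.20% of all genes tested fell and 8.71% rose, 17.9% in either direction. The genes that fell were Col1a1, Col5a1, Col14a1, Sparc, Bglap, Bglap2 and Dcn. The remainder did not move one way: 14 of the 29 log2 fold changes were positive and 15 negative, with a median of -0.11, beside -0.01 over all genes. Over the same 29 genes without male non-leukemic replicates 2 and 3 the median was 0.37, beside 0.01 over all genes. Genes at this level pass the filter only if enough libraries carry them, so the 29 do not stand for all 43. Bglap, Bglap2 and Dcn had at most 0.0749, 0.0749 and 0.210 CPM in any leukemic library and passed it only through the non-leukemic group. They could therefore be called only as lower. With no filter, 6 of the 43 members fell, those named above except Col14a1, and 0 rose. Of 29213 genes, 1193 fell and 1240 rose there. Libraries also varied more in the members, with a median biological coefficient of variation of 0.912 over the 29 and 0.306 over all genes. These sets were not matched for expression level, so the difference is not read as a trait of matrix genes. In bulk libraries fewer cells of a type and less RNA per cell cannot be told apart, which holds for every difference below.

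**Figure D2:**
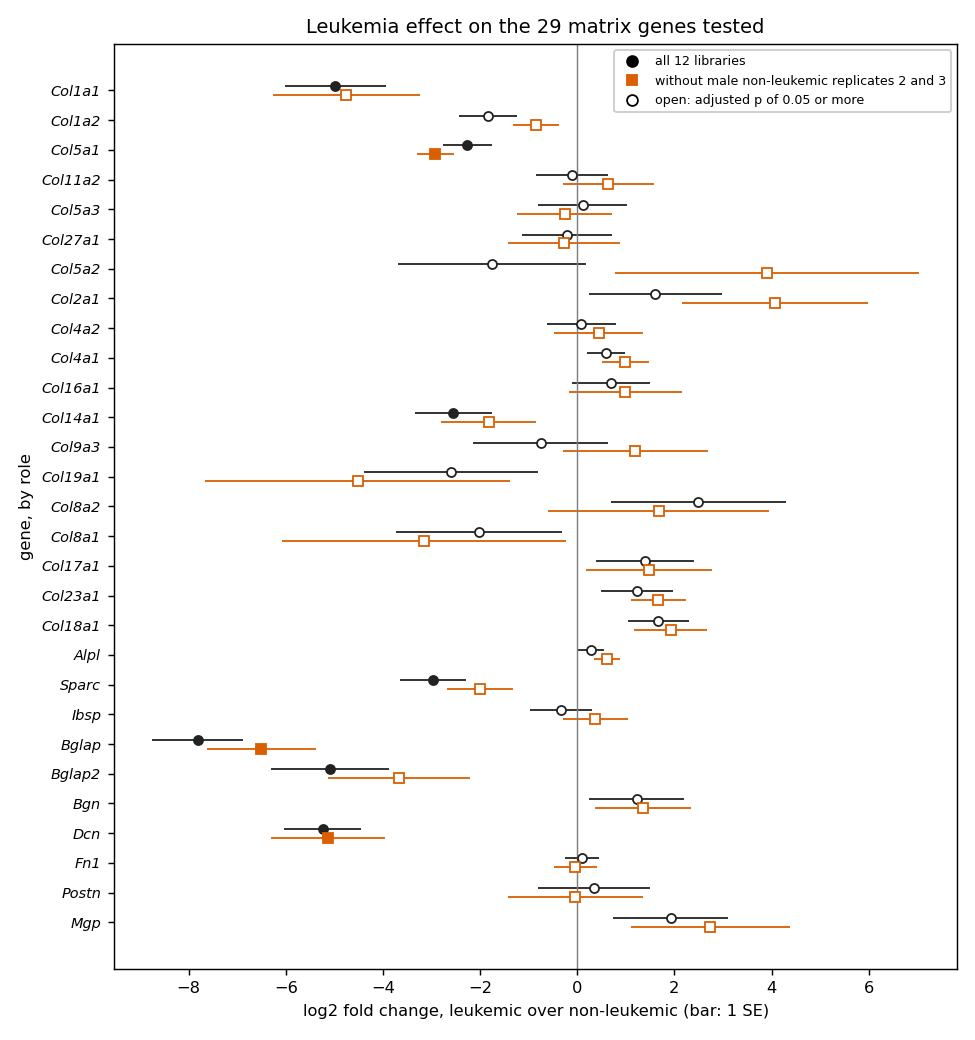
Log2 fold changes, leukemic over non-leukemic, of the 29 matrix genes tested, with bars of 1 SE. Black circles use all 12 libraries and orange squares leave out male non-leukemic replicates 2 and 3, with filled symbols for an adjusted p under 0.05. Of the 7 filled circles, Col5a1, Bglap and Dcn are also filled as squares.

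Among the fibrillar collagens, which form the striated fibers of bone, skin and tendon, 2 of 8 tested fell, Col1a1 and Col5a1. This count and those of the other roles stand beside the 9.20% of all genes tested that fell. Col1a1, the alpha 1 chain of type I collagen, had 2.03, 24.2 and 0 CPM in male leukemic replicates 1 to 3 and 0.0333, 0.449 and 0.223 CPM in female leukemic replicates 1 to 3. In male non-leukemic replicates 1 to 3 it had 29.0, 149.6 and 332 CPM, and in female non-leukemic replicates 1 to 3 it had 23.0, 10.4 and 10.5 CPM. All leukemic libraries but male replicate 2 lay below all non-leukemic libraries, and that library lay within their range, above all female non-leukemic libraries. It carried 645 of the 721 leukemic counts of Col1a1, which is 89.5%. Male non-leukemic replicates 2 and 3 carried 86.5% of the 11863 non-leukemic counts. The log2 fold change of Col1a1 was -4.98 ± 1.04 (SE, adjusted p = 0.00523). Without the male non-leukemic pair it was -4.75 ± 1.51 (adjusted p = 0.0531), just short of the threshold, and without male leukemic replicate 2 it was -6.90 (adjusted p = 0.000901).

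Col1a2, the other chain of the type I trimer, had 23.0, 20.03 and 16.1 CPM in the male leukemic libraries and 1.93, 2.697 and 14.4 CPM in the female leukemic libraries. It had 34.8, 101 and 228 CPM in the male non-leukemic libraries and 10.5, 8.49 and 13.3 CPM in the female non-leukemic libraries. In males all leukemic libraries lay below all non-leukemic ones, while in females the ranges overlapped. Its log2 fold change of -1.84 ± 0.60 narrowly missed the threshold (adjusted p = 0.0512), and without the male non-leukemic pair it was -0.85 ± 0.47 (adjusted p = 0.254). Of 22 alternative settings, Col1a2 fell in 5 and did not pass in 17. The 5 were DESeq2, limma-voom, a filter of 5 CPM in 3 libraries, a replicate block within sex, and omission of female leukemic replicate 3. In the last of these, the log2 fold change of Col1a2 was -2.53 (adjusted p = 0.00215).

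The type I chains thus stood in different proportion in the 2 conditions. Col1a1 made up 8.11%, 54.7% and 0% of the counts of the chain pair in male leukemic replicates 1 to 3 and 1.69%, 14.3% and 1.53% in female leukemic replicates 1 to 3. It made up 45.4%, 59.7% and 59.3% in the male and 68.7%, 55.0% and 44.1% in the female non-leukemic libraries. Apart from male leukemic replicate 2, every leukemic library was below every non-leukemic library. The exact 95% intervals do not touch either, since the highest of these 5 leukemic values, in female replicate 2, has 7.61% to 23.6% and the lowest non-leukemic value, in female replicate 3, has 40.2% to 48.0%. Male leukemic replicate 3 had 0 counts of Col1a1 beside 16.1 CPM of Col1a2, which allows a share of up to 0.862% by the exact interval. Per kilobase of exon, the ratio of Col1a1 to Col1a2 was 0 to 0.150 in these 5 leukemic libraries, 1.09 in male leukemic replicate 2 and 0.711 to 1.98 in the non-leukemic libraries. This comparison was chosen after the values were seen and was not tested.

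**Figure D3:**
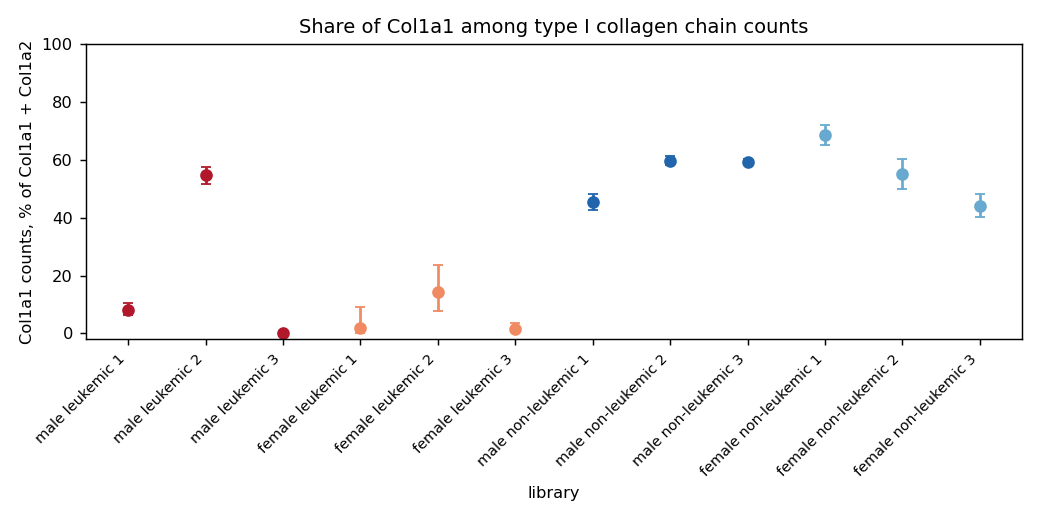
Col1a1 counts as a percentage of Col1a1 plus Col1a2 counts in each library, leukemic libraries on the left, with exact 95% binomial intervals that cover counting error only. Of the leukemic libraries, 5 lie at 14.3% or lower, and male leukemic replicate 2, at 54.7%, lies among the non-leukemic libraries at 44.1% to 68.7%.

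Col5a1, a chain of type V collagen that helps to start and limit type I fibrils, had 17.5, 7.08 and 28.3 CPM in male leukemic replicates 1 to 3 and 6.16, 5.62 and 8.91 CPM in female leukemic replicates 1 to 3. It had 70.9, 32.8 and 12.98 CPM in male non-leukemic replicates 1 to 3 and 81.2, 57.8 and 62.2 CPM in the female ones. The libraries richest in type I collagen were thus lowest in Col5a1 among the non-leukemic group, and only replicate 3 of them overlapped the leukemic range. Male non-leukemic replicates 2 and 3 held 12.4% of the non-leukemic Col5a1 counts. Its log2 fold change was -2.27 ± 0.50 (adjusted p = 0.00738), and -2.92 ± 0.38 without that pair (adjusted p = 0.000408), when the conditions no longer overlapped.

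The other fibrillar chains were low or scattered. Col11a2, a chain of cartilage type XI collagen, averaged 4.40 ± 2.51 CPM in leukemic and 4.53 ± 2.75 CPM in non-leukemic libraries (log2 fold change -0.11 ± 0.74, adjusted p = 0.947). Col5a2, the partner chain of Col5a1, had counts in 3 libraries only, with 1.80 CPM in male leukemic replicate 2 and 2.54 and 3.44 CPM in male non-leukemic replicates 2 and 3. These are the same 3 libraries that had the most Col1a1 in each condition. Col11a1 had 0 leukemic counts and 75 non-leukemic counts, 70 in male non-leukemic replicate 3 and 5 in replicate 2. Pooled over libraries it was at least 31.0-fold higher in the non-leukemic group, against a floor of 3 counts over the leukemic group. That ratio rests on male non-leukemic replicate 3, and Col11a1 did not pass in edgeR without a filter on low counts (adjusted p = 0.0883). Col3a1, the type III chain of reticular fibers, was sparse, with 28 leukemic and 54 non-leukemic counts. Its top values were 0.936 CPM in female leukemic replicate 3 and 1.54 CPM in female non-leukemic replicate 3. Col5a3, Col27a1 and Col2a1 did not pass, with log2 fold changes of 0.11 ± 0.92, -0.21 ± 0.92 and 1.61 ± 1.37.

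Basement membrane collagens, the type IV network under endothelium and around other cells, did not pass the test. Col4a1 averaged 7.97 ± 3.56 CPM in leukemic and 4.98 ± 2.76 CPM in non-leukemic libraries (log2 fold change 0.59 ± 0.39, adjusted p = 0.355). Col4a2, its partner in the same trimer, averaged 7.79 ± 4.35 CPM in leukemic libraries, at 0 in female replicate 1, against 6.79 ± 3.16 CPM in non-leukemic libraries (0.08 ± 0.71, adjusted p = 0.958). Of the minor chains, Col4a5 had 76 leukemic and 0 non-leukemic counts, at least 20.4-fold higher in leukemic libraries against a floor of 3 counts over the non-leukemic group, but its counts came from 3 libraries. Col4a3 had 0 leukemic and 22 non-leukemic counts, at least 9.09-fold higher in the non-leukemic group. Without a filter on low counts, neither Col4a5 (adjusted p = 0.0886) nor Col4a3 (adjusted p = 0.0544) passed. The type VI family, which forms beaded filaments near cells, had 43 counts of Col6a1, 40 of Col6a2, 61 of Col28a1 and none of Col6a3 over all libraries, too few to test.

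Fibril-associated collagens decorate the surface of fibrils, and 1 of 4 tested fell, beside 9.20% of all genes. Col14a1, which binds to type I fibrils, had 2.63, 0.187 and 1.92 CPM in male leukemic replicates 1 to 3 and 0, 1.27 and 2.81 CPM in female leukemic replicates 1 to 3. It had 2.76, 14.8 and 13.6 CPM in the male and 7.61, 3.99 and 6.54 CPM in the female non-leukemic libraries. The ranges met only at male non-leukemic replicate 1, which lay just below female leukemic replicate 3. The log2 fold change was -2.55 ± 0.79 (adjusted p = 0.0410). This call was fragile: it was lost without male non-leukemic replicates 2 and 3 (-1.82 ± 0.97, adjusted p = 0.244), with no filter on low counts, and on leaving out any library but female leukemic replicate 1 or 3 or male non-leukemic replicate 1. Col16a1 averaged 5.80 ± 3.90 CPM in leukemic and 3.58 ± 3.32 CPM in non-leukemic libraries and did not pass (0.70 ± 0.80, adjusted p = 0.621).

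Col18a1, the heparan sulfate proteoglycan of basement membranes from which endostatin is cut, leaned the other way. It had 12.3, 8.50 and 13.4 CPM in male leukemic replicates 1 to 3 and 7.76, 4.16 and 9.54 CPM in female leukemic replicates 1 to 3. It had 3.40, 3.02 and 6.15 CPM in the male and 1.48, 0 and 3.61 CPM in the female non-leukemic libraries. Of the non-leukemic libraries, only male replicate 3 reached into the leukemic range. The log2 fold change of 1.67 ± 0.62 did not pass (adjusted p = 0.0841), nor without the male non-leukemic pair (1.92 ± 0.76, adjusted p = 0.112), although it passed in DESeq2 (adjusted p = 0.0228) and without female non-leukemic replicate 2 (1.37, adjusted p = 0.0242). The membrane-spanning Col23a1 (1.23 ± 0.74) and Col17a1 (1.39 ± 1.01) did not pass either, at averages of 1.20 ± 0.574 and 1.39 ± 1.17 CPM in leukemic and 0.454 ± 0.364 and 0.512 ± 0.261 CPM in non-leukemic libraries.

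Of the 5 proteins of mineralizing bone, Bglap, Bglap2 and Sparc fell and Ibsp and Alpl did not pass. Of all genes tested 9.20% fell, and Bglap and Bglap2 could be called only as lower. Bglap encodes osteocalcin, the vitamin K-dependent protein of mature osteoblasts. Its leukemic libraries held 2 counts in all, both in male replicate 2 at 0.0749 CPM, while the other 5 libraries were at 0. It had 1.63, 5.26 and 12.4 CPM in male non-leukemic replicates 1 to 3 and 1.34, 0.749 and 0.263 CPM in the female ones. The conditions did not overlap. With 463 non-leukemic counts the depth-scaled level was 287-fold higher in the non-leukemic group (exact 95% counting interval 79.0 to 2378). Without male non-leukemic replicate 3 alone the ratio was 132 (36.1 to 1100), and without replicates 2 and 3, which leaves 86 non-leukemic counts, it was 77.2 (20.7 to 648). The adjusted p was 0.000122, and 0.00236 without male non-leukemic replicates 2 and 3, which held 81.4% of the non-leukemic counts.

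Bglap2 encodes a second copy of osteocalcin. Its transcript of 471 bases matches that of Bglap at 434 of 440 aligned bases (98.6%), with an identical run of 241 bases, so reads are hard to assign between the copies and their separate values are uncertain. It had 3 leukemic counts, 2 in male replicate 2 and 1 in female replicate 2, and 115 non-leukemic counts, a ratio of 47.5 in favor of the non-leukemic group (15.9 to 234). The ratio was 25.2 (8.14 to 126) without male non-leukemic replicate 3 and 12.6 (3.75 to 65.8, from 21 non-leukemic counts) without replicates 2 and 3. Bglap2 fell (adjusted p = 0.0117), but did not pass without the male non-leukemic pair (adjusted p = 0.115), and female non-leukemic replicate 3 was at 0.

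Sparc, or osteonectin, binds collagen and calcium and is also made by platelets and endothelium. It had 2.77, 5.92 and 1.43 CPM in male leukemic replicates 1 to 3 and 1.20, 0.150 and 2.67 CPM in female leukemic replicates 1 to 3. It had 8.07, 29.2 and 70.1 CPM in male non-leukemic replicates 1 to 3 and 10.1, 5.94 and 3.72 CPM in the female ones. Only female non-leukemic replicate 3 lay inside the leukemic range, whose top was again male leukemic replicate 2. The log2 fold change was -2.98 ± 0.68 (adjusted p = 0.00880), and -2.002 ± 0.68 without the male non-leukemic pair (adjusted p = 0.0692).

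Ibsp, bone sialoprotein, an acidic phosphoprotein that can nucleate mineral, averaged 1.91 ± 1.20 CPM in leukemic and 3.04 ± 2.74 CPM in non-leukemic libraries (log2 fold change -0.33 ± 0.63, adjusted p = 0.784). Male non-leukemic replicates 2 and 3, at 6.45 and 6.53 CPM, lay above all other libraries, which reached 3.37 CPM. Alpl, tissue-nonspecific alkaline phosphatase, which frees phosphate for mineral and is also found on granulocytes, had 9.56, 9.66 and 8.29 CPM in the male and 19.4, 20.1 and 22.2 CPM in the female leukemic libraries. It had 7.07, 10.6 and 11.6 CPM in the male and 6.32, 11.7 and 17.8 CPM in the female non-leukemic libraries. Female leukemic libraries were higher than all others, but the leukemia effect did not pass (0.27 ± 0.27, adjusted p = 0.562). Alpl therefore did not follow Bglap, Sparc and Col1a1 among the libraries.

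**Figure D4:**
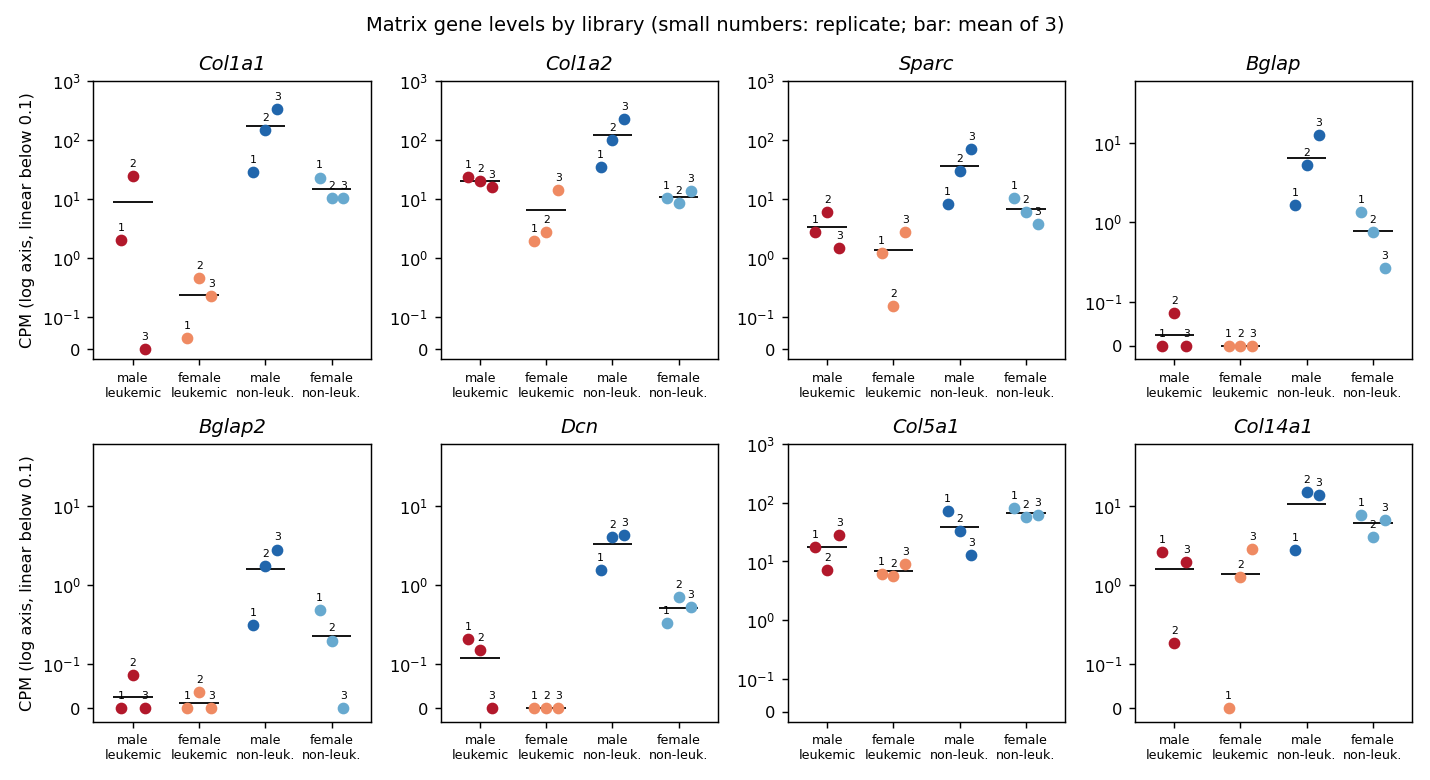
CPM of 8 matrix genes in each library, on an axis that is logarithmic above 0.1 CPM and linear below it, with leukemic groups left of non-leukemic groups. Points are libraries with their replicate number, and bars are means of 3. Col1a1, Col1a2, Sparc, Bglap and Bglap2 are highest in male non-leukemic replicate 3 and Col5a1 is lowest there among non-leukemic libraries.

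Among the small leucine-rich proteoglycans, which coat collagen fibrils and set their width, 1 of 2 tested fell, beside 9.20% of all genes. That gene, Dcn, could be called only as lower. Dcn, decorin, had 0.210, 0.150 and 0 CPM in male leukemic replicates 1 to 3 and 0 in all female leukemic libraries, a total of 10 counts. It had 1.54, 4.02 and 4.25 CPM in male non-leukemic replicates 1 to 3 and 0.335, 0.699 and 0.526 CPM in the female ones, a total of 236 counts. The conditions did not overlap, with or without male non-leukemic replicates 2 and 3. The log2 fold change was -5.24 ± 0.80 (adjusted p = 0.000671), and -5.13 ± 1.17 without that pair (adjusted p = 0.0110). Lum, lumican, had 5 leukemic counts, all in male replicate 2, and 98 non-leukemic counts, of which 92.9% lay in male replicates 2 and 3, and it did not pass without a filter on low counts (-4.61, adjusted p = 0.0546). Bgn, biglycan, averaged 1.22 ± 0.842 CPM in leukemic and 0.532 ± 0.500 CPM in non-leukemic libraries (1.23 ± 0.98, adjusted p = 0.447).

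In all 12 libraries, Bglap and Dcn were the only members whose conditions did not overlap with leukemic libraries lower, beside 3.63% of all genes tested, and 0 members lay wholly higher, beside 5.05%. Without male non-leukemic replicates 2 and 3, Col5a1 joined them, beside 9.70% of genes, and Col18a1 lay wholly higher in leukemic libraries, beside 9.25%. At these member numbers the counts are of the order of those shares, and nothing particular to the members is read from them.

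Fn1, the gene of fibronectin, which links cells to collagen and is made by macrophages and liver, carried the most counts of all members in the leukemic libraries, 9012 of them. It had 133, 42.3 and 63.6 CPM in male leukemic replicates 1 to 3 and 14.5, 48.4 and 29.3 CPM in female leukemic replicates 1 to 3. It had 39.2, 39.7 and 59.6 CPM in the male and 27.2, 57.8 and 36.4 CPM in the female non-leukemic libraries. The ranges overlapped throughout, and the log2 fold change was 0.09 ± 0.35 (adjusted p = 0.895). Fn1 made up 21.2% to 53.3% of the member counts in leukemic and 7.39% to 32.2% in non-leukemic libraries, lowest in male non-leukemic replicates 3 and 2. Postn, periostin, a matrix protein of periosteum and ligament, averaged 1.10 ± 1.27 CPM in leukemic and 0.667 ± 0.649 CPM in non-leukemic libraries (0.35 ± 1.15, adjusted p = 0.882). Mgp, matrix Gla protein, an inhibitor of calcification, had 59 leukemic and 12 non-leukemic counts (1.92 ± 1.19, adjusted p = 0.313).

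Scaled by exon length, the order of the members differed between the conditions. In leukemic libraries the highest mean levels were those of Fn1 (6.52 CPM per kb), Alpl (5.89), Col1a2 (2.43), Col5a1 (1.46) and Col18a1 (1.37), with Col1a1 at 0.756. In non-leukemic libraries they were those of Col1a1 (15.6 CPM per kb), Col1a2 (12.4), Bglap (8.19), Sparc (7.78) and Col5a1 (6.30), ahead of Fn1 (5.11) and Alpl (4.30). That order rested on male non-leukemic replicates 2 and 3. Without them it was Col5a1 (8.09 CPM per kb), Fn1 (4.73), Alpl (4.25), Col1a2 (3.14), Col1a1 (3.07), Sparc (2.56) and Bglap (2.26). These means carry the spread given above, so neighbors in each order are not separated.

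When male non-leukemic replicates 2 and 3 were left out, 39 members and 18066 genes passed the filter, and 3 members fell, Bglap, Col5a1 and Dcn, with 0 rising. Of all genes tested, 9.09% fell and 8.67% rose in this comparison, 17.8% in either direction. With the gene set held at that of the full comparison, which was decided after seeing the data, Col1a1 also fell (adjusted p = 0.0499), and 10.6% of genes did. In this comparison of 10 libraries, 1 member, Col5a1, fell without male non-leukemic replicate 1, 5 fell without male leukemic replicate 2, and 3 fell and 2 rose without female leukemic replicate 1. Over all genes, 984 of 15379 fell in the first of these and 1410 of 17901 in the second. In the third, 2322 of 17780 genes fell and 2356 rose. Of this pair, only male non-leukemic replicate 3 stood apart in markers of marrow macrophages. Their 16 genes summed to 5211 CPM there, 2164 CPM in replicate 2 and 1717 to 2050 CPM in the other non-leukemic libraries. In leukemic libraries the sum was 548 to 1248 CPM. In the comparison of all 12 libraries, 11 of these 16 genes fell and 0 rose, beside 9.20% and 8.71% of all genes. Osteoclast markers were also highest in male non-leukemic replicate 3, at 1695 CPM, against 482 to 775 CPM in leukemic and 638 to 1032 CPM in the other non-leukemic libraries. The part of either cell type in the collagen levels was not tested.

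By sex, 4 members fell in males and 4 in females, where 4.04% and 4.59% of genes did. In males 3.34% of genes and in females 3.84% of genes rose, but 0 members did, and changes in either direction came to 7.37% and 8.43% of genes. Bglap and Dcn fell in both sexes. In males Sparc (-3.60 ± 0.95, adjusted p = 0.0401) and Col1a2 (-2.81 ± 0.75, adjusted p = 0.0414) also fell. In females Col5a1 (-3.28 ± 0.59, adjusted p = 0.00627) and Col1a1 (-5.97 ± 1.69, adjusted p = 0.0496) also fell. Without male non-leukemic replicates 2 and 3, which leaves 1 male non-leukemic library whose spread is assumed to be that of the other groups, Col5a1 alone fell in males, and Bglap and Col5a1 fell in females. These counts also moved with single libraries, as did those of all genes. In males, the genes that fell ranged from 254 of 16293, without male leukemic replicate 2, to 1100 of 16240, without female leukemic replicate 1. In females, they ranged from 286 of 16658, without female non-leukemic replicate 1, to 926 of 16665, without male non-leukemic replicate 3. In males 1 member fell without male leukemic replicate 1 and likewise without male non-leukemic replicate 2 or 3. There 2 fell without male leukemic replicate 2 or 3 and again without female non-leukemic replicate 1 or 2, and 6 fell without female leukemic replicate 1. In females 1 member fell when female leukemic replicate 3 was left out, and the same number without female non-leukemic replicate 1 or 2. There 2 fell without female leukemic replicate 2, and also without female non-leukemic replicate 3. The difference between the sexes was itself tested, and 0 members and 0.00% of genes passed the interaction in edgeR. At an unadjusted p under 0.05 there were 2 members, Col5a1 (male minus female effect 2.01 ± 0.77) and Alpl (-1.04 ± 0.47), both with an adjusted p of 0.819. DESeq2 passed 23 genes and 0 members.

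Among non-leukemic libraries, the genes tied to male replicates 2 and 3 were higher in males, which follows from how they were picked out. For this sex difference 0 members and 0.00% of genes passed in edgeR. Unadjusted, 7 members had a p under 0.05, with Col1a2 at 3.55 ± 0.77 (male minus female on the log2 scale, adjusted p = 0.619) and Bglap at 3.09 ± 1.00 (adjusted p = 0.955). DESeq2 passed 35 genes, of which Col1a2 was the single member. Without male non-leukemic replicates 2 and 3, 1 member had an unadjusted p under 0.05.

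The members that fell did not all share an order of libraries. As a description over 12 libraries, which share their condition, depth and preparation, Pearson correlations of log2 CPM among Col1a1, Sparc, Bglap, Bglap2 and Dcn were 0.837 to 0.957 in the 10 pairs. Those of Col14a1 with the 5 genes were 0.585 to 0.682, and those of Col5a1 were 0.282 to 0.507. The 5 genes were picked from the 7 that fell in these same libraries, so positive correlations follow in part from that choice. The highest value was that of Bglap with Bglap2, whose reads are hard to assign between the copies. Next came Bglap with Dcn, at 0.940. Among all genes tested, the 8 most like Col1a1 by this measure were Septin5 (0.949), Cbr2 (0.933), Dcn (0.920), Cxcl12 (0.902), Cd209f (0.902), S1pr5 (0.902), Bcl2l1 (0.902) and Ccr3 (0.901). Of these, Cxcl12, the main chemokine of marrow stroma, had 6.29 CPM in male leukemic replicate 2 against 0.333 to 1.44 CPM in the other leukemic libraries and 1.85 to 4.97 CPM in non-leukemic libraries. That is the same leukemic library that held most of the Col1a1. Cbr2 and Cd209f, by contrast, had 1.83 and 0.711 CPM there and stayed below all non-leukemic libraries, at 3.34 to 16.6 and 4.92 to 22.1 CPM. Male non-leukemic replicate 3 had the most of both.

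Genes for enzymes and chaperones that process collagen moved both ways. Of 20 tested from a list of 22, 3 rose and 1 fell, where 8.71% of all genes tested rose and 9.20% fell. P4hb, a subunit of prolyl 4-hydroxylase and a general protein disulfide isomerase, rose (0.49 ± 0.13, adjusted p = 0.0191), as did the collagen galactosyltransferase Colgalt1 (0.33 ± 0.10, adjusted p = 0.0394). The lysyl hydroxylase Plod2 also rose and Bmp1, the procollagen C-proteinase, fell, both named after their values were seen. Bmp1 had 22.6, 10.8 and 6.92 CPM in male non-leukemic replicates 1 to 3, lowest in replicate 3 as was Col5a1. The collagen chaperone Serpinh1, needed by cells that secrete type I collagen, averaged 1.40 ± 1.04 CPM in leukemic and 2.56 ± 2.46 CPM in non-leukemic libraries and did not pass (-0.76 ± 0.89, adjusted p = 0.631).

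Among receptors and proteases of collagen, 3 of 16 tested rose and 3 fell, beside the same 8.71% and 9.20% of all genes. The collagen-degrading proteases Mmp9 (-1.21 ± 0.29, adjusted p = 0.0115) and Mmp8 (-1.23 ± 0.37, adjusted p = 0.0358) fell, and so did Mmp14, named after its values were seen. Mmp8 and Mmp9 are also stored by neutrophils. The integrin collagen receptor genes Itga1 and Itga2 rose, likewise named afterwards, as did Timp1, which had 92 leukemic and 2 non-leukemic counts. With at most 0.118 CPM in any non-leukemic library, Timp1 passed the filter only through the leukemic group. It could therefore be called only as higher. The shared integrin chain gene Itgb1 did not pass (0.27 ± 0.16, adjusted p = 0.309).

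Markers of cells that make matrix gave mixed counts, to be read beside the 8.71% of all genes that rose and the 9.20% that fell. Of 17 osteoblast and osteocyte genes 6 could be tested, of which 2 rose and 0 fell, and their sum was 85.0 to 136 CPM in leukemic and 31.1 to 74.4 CPM in non-leukemic libraries. That sum rests on Spp1, osteopontin, which macrophages also make (1.59 ± 0.29, adjusted p = 0.00225), and on Runx2, the osteoblast transcription factor that lymphoid and myeloid cells also use (0.75 ± 0.15, adjusted p = 0.00358). The defining genes were near 0: Mepe had no count, Sp7 had 7 leukemic and 9 non-leukemic counts, Dlx5 had 0 leukemic and 3 non-leukemic, and Sost 0 leukemic and 4 non-leukemic. Of the marrow stroma list 1 of 8 tested rose and 2 fell, and the sum was 160 to 274 CPM in leukemic and 258 to 614 CPM in non-leukemic libraries, highest in male replicate 3. Vcam1 and Lpl, which fell, are also macrophage genes, while Ebf3 had no count and Lepr had 19 leukemic and 32 non-leukemic counts. Cxcl12 did not pass (-1.24 ± 0.48, adjusted p = 0.0980).

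Chondrocyte markers summed to 1.00 to 3.99 CPM in leukemic and 0.601 to 3.29 CPM in non-leukemic libraries, and pericyte markers to 1.30 to 3.76 CPM in leukemic and 0.752 to 7.26 CPM in non-leukemic libraries. Sox9, Snorc, Epyc and Tnmd had no count, and Pdgfra had 11 leukemic and 0 non-leukemic counts. Of the fibroblast and tendon list 2 of 4 tested rose and 0 fell, whereas 0 of 2 tested passed in each of the chondrocyte and pericyte lists. The 2 that rose, Dpt and Fbn1, had at most 0.181 and 0.215 CPM in any non-leukemic library. Both passed the filter only through the leukemic group and could be called only as higher. Of 11 endothelial genes 3 rose and 1 fell, and they summed to 113 to 242 CPM in leukemic and 83.5 to 136 CPM in non-leukemic libraries. Pecam1, which platelets and leukocytes also carry, made up most of that sum, at 125 ± 32.8 CPM in leukemic and 58.4 ± 10.3 CPM in non-leukemic libraries (1.00 ± 0.18, adjusted p = 0.00227). Megakaryocyte and platelet genes, a further source of Sparc, had 1 of 9 rising and 1 falling, with sums of 286 to 718 CPM in leukemic and 256 to 363 CPM in non-leukemic libraries. Male leukemic replicate 2, which had the most Col1a1 of the leukemic group, summed to 129 CPM for osteoblast, 248 CPM for stroma and 219 CPM for endothelial markers, inside the range of the other leukemic libraries in each. Most of these sums came from Spp1 (81.1 CPM) and Runx2 (45.3), from Vcam1 (91.1) and Angpt1 (92.3), and from Pecam1 (123). A rarer marker such as Cxcl12, at 6.29 CPM there, hardly changes such a sum. The sums therefore cannot show if rarer markers were raised, and nothing on cell sources is read from them. Which cells carried the collagen and osteocalcin transcripts was not tested.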

How the data were processed

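RNA of sorted marrow macrophages was sequenced in 12 libraries, 3 for each sex and condition. Per the labels' protocols, RNA was pre-amplified with a SMARTer kit and libraries were made with Nextera XT, so neither strand nor single molecules are marked. The authors deposited raw counts for each gene. Per the submitters' processing notes, the tools were STAR 2.7.9a, featureCounts of Subread 2.0.1, fastp 0.23.1 and bcl2fastq 2.19.1 for reads and DESeq2 1.28.1 in R 4.0.2, on build GRCm39, with no settings stated. No coordinates of that build are printed here.

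CPM were computed here from the totals. Genes were filtered with filterByExpr, scaled by TMM and tested in edgeR 4.0.16 (R 4.3.3) by the robust quasi-likelihood F test, with Benjamini-Hochberg adjustment over all genes tested. Sex contrasts and the interaction came from a model of 4 group means. An SE is the size of the log2 fold change over the square root of its F. All p values are two-sided. Shares and count ratios have exact 95% intervals. Exon lengths and the osteocalcin transcripts are from GENCODE M21.

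Alternatives were RLE factors, DESeq2 1.42.0, limma-voom 3.58.1, no filter, a filter of 5 CPM in 3 libraries, omission of the sex term, a block for replicate number within sex, omission of male non-leukemic replicates 2 and 3, and omission of each library. Omitting female leukemic replicate 1 with male non-leukemic replicate 3, and holding the gene set, were added later. The pipeline was tested on simulated data. Within each group of sex and condition, no library was a copy of another (lowest chi-square per degree of freedom 22.6). Pairs from different groups were not compared in this way.

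The genes, lists and the pair of libraries left out were chosen with earlier results of these data known. Values are given for genes that passed, the 12 members with the most counts, all members other than collagens, Col3a1 and Col6a1, the 8 genes most like Col1a1 by Pearson correlation of log2 CPM (prior count 2), and up to 4 genes with the most counts in other lists. Genes named outside this rule, among them Col5a2, Col11a1, Col4a5, Col4a3, Serpinh1 and defining markers of other cell types, were chosen after their values were seen.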

Additional observations from a re-analysis of the deposited data

Results flagged for a closer look

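For the 22 members named by rule and for the summed share of all members, the highest and lowest of the 6 libraries of a condition were compared with the rest by Dixon's test. A single library stood apart in 6 of 46 such groups. In 2 of the 6, Bglap and Lum in leukemic libraries, the other 5 libraries were at 0, so that any count would have stood apart. That leaves 4 of 44 groups with counts in more than 1 library. Chance gives about 1 in 20 for normally distributed values, a rate that need not hold for CPM of sparse genes, so no excess is read from these counts. In 3 of the 6 groups it was male leukemic replicate 2, the highest leukemic library for Col1a1 (24.2 CPM), Bglap (0.0749 CPM, from 2 counts) and Lum (0.187 CPM, from 5 counts). Col3a1 was far highest in female leukemic replicate 3 (0.936 CPM) among leukemic libraries, and in female non-leukemic replicate 3 (1.54 CPM) among non-leukemic libraries. Col6a1 was far highest in male leukemic replicate 3 (0.829 CPM, 22 of its 23 leukemic counts). Male non-leukemic replicate 3, the highest library for type I collagen, was picked out in 0 of them.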

How the results depend on the processing

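With relative log expression factors the 7 members that fell were the same. Over all libraries DESeq2 passed 3717 genes and 9 members, of which 8 fell, with Col1a2 added, and 1 rose, Col18a1. Limma-voom passed 2930 genes and 8 members there, all lower, with Col1a2 added. The filter of 5 CPM left 12 members to test, of which 5 fell, Col1a1, Col1a2, Col5a1, Col14a1 and Sparc. DESeq2 passed 2053 genes in males, 2366 in females, 23 for the interaction and 35 for the sex difference, with 1 member in the last. Without male non-leukemic replicates 2 and 3 it passed 6 members, beside 4318 of 18066 genes. Limma-voom gave 6 members there, beside 3247 of 18066 genes, and 1 in females, beside 1406 of 15758. The filter of 5 CPM left 2 members in males, beside 1211 of 10938 genes, and 1 in females, beside 1487. Without male non-leukemic replicates 2 and 3 the members passing numbered 3 over both sexes, 1 in males and 2 in females, or 4 over both sexes with the gene set held. With male non-leukemic replicate 3 and female leukemic replicate 1 left out together, chosen after seeing the data, 4717 genes passed, and the same 7 members.

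Correlations between same-numbered libraries were weak, at -0.0317 to 0.0782, and 4 of 6 leukemic libraries correlated best with their own number. In females same-numbered pairs had 0.0424, 0.0624 and 0.0782, and the other pairs -0.0487 to -0.0134. In males same-numbered pairs had 0.00345, 0.0300 and -0.0317. These values do not settle if replicate numbers pair the libraries. With the replicate block 2221 genes and 7 members passed, with Col1a2 in place of Col14a1. In males 718 genes and 1 member passed, and in females 886 genes and 1 member. With the block and without male non-leukemic replicates 2 and 3, 1614 genes and 2 members passed, Col1a1 and Col5a1, so Bglap and Dcn no longer passed there.

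Leaving out each library, the members passing ranged from 6 to 8 (2108 to 3910 genes), from 1 to 6 in males (513 to 2087 genes), from 1 to 4 in females (504 to 1773 genes), and from 1 to 5 without the male non-leukemic pair (1842 to 4678 genes). For the sex difference 0 to 3 genes passed.

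Of the 29 members tested, log2 fold changes turned sign under some alternative in 10, none of which had passed. Col4a2 was -0.64 and Col17a1 -0.20 with limma-voom, and Col4a2 was -0.25 with the replicate block. Without male non-leukemic replicates 2 and 3, Col11a2 was 0.64, Fn1 -0.0364, Ibsp 0.37, Postn -0.0409, Col5a3 -0.26, Col9a3 1.20 and Col5a2, whose non-leukemic counts all lie in that pair, 3.91. With the gene set held these were 0.64, -0.0363, 0.37, -0.0359, -0.25, 1.19 and 4.31. Fn1 was -0.0143 with the replicate block, and Col11a2 was 0.32 and Col27a1 0.49 without male non-leukemic replicate 3 and female leukemic replicate 1. Leaving out each library gave -0.36 to 0.14 for Col11a2, -0.23 to 0.35 for Col4a2, -0.20 to 0.31 for Fn1, -0.73 to 0.00764 for Ibsp, -0.68 to 1.76 for Postn, -0.82 to 0.097 for Col27a1 and -0.21 to 0.49 for Col5a3. Without a sex term Col1a1 missed the threshold (adjusted p = 0.0621). The causes were not tested.

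Depth sets the limit for most members: 14 of 43 could not be tested, and at 0.1 to 0.177 CPM a count of 0 does not show absence.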
